A study of Mus musculus with 8 samples.

Results

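The genes described here are 10 members of the mouse zinc-handling system: the metallothioneins Mt1 and Mt2, the zinc sensor Mtf1, the zinc exporters Slc30a1, Slc30a5 and Slc30a7, and the zinc importers Slc39a6, Slc39a7, Slc39a10 and Slc39a14. They were chosen from the 39179 gene identifiers in each library with their values in these libraries already known, so those values are given as a description and without a p-value. Where a member is said below to pass or not pass a threshold, that too is a description and not a test of the member. The libraries are bulk RNA-seq of common lymphoid progenitors (CLP), marrow cells upstream of the B, T and innate lymphoid lineages, from C57BL/6 mice. One group (ex vivo CLP, 4 libraries) was sorted straight from bone marrow, and the other (cCLP, 4 libraries) was sorted after 2 months of culture on OP9 cells, a bone marrow stromal line, in KIDMEM medium with Flt3L and low-dose IL-7. Both groups were sorted through the same gate, negative for lineage markers and Ly6d and positive for IL7R, Flk2 and CD27. No label gives a mouse, culture or batch for any library, so the errors below measure the spread between these libraries, which may be technical.

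Zinc enters the cytosol through ZIP proteins (the Slc39 family) and leaves it, for organelles or for the outside, through ZnT proteins (the Slc30 family). Metallothioneins are small cysteine-rich proteins that bind zinc, copper and cadmium in the cytosol. MTF1 binds DNA when zinc rises, at short metal response elements in the promoters of Mt1, Mt2 and Slc30a1. Glucocorticoids and oxidative stress are other known inducers of the metallothionein genes. Zinc supply matters for lymphocytes, and zinc deficiency is known to shrink the B and T cell precursor pools.

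The deposited values are whole numbers per gene on a scale that is not named. They summed to between 378594 and 704305 per library, with 11371 to 12779 genes above 0. Scaled values below are these numbers divided by a factor for each library. A pair of libraries did not lie with their label: over 6486 genes, ex vivo library 2 had a Spearman correlation of 0.959 to 0.987 with cCLP 2 to 4 but of 0.738 to 0.801 with its own group, and cCLP 1 had one of 0.947 to 0.979 with ex vivo libraries 1, 3 and 4 but of 0.781 to 0.793 with its own. Each comparison is therefore given for all 8 libraries as labelled and for the 6 libraries without that pair. The 6-library set was drawn from the data themselves and does not replace the labels. That choice favours separation of the groups, so every p-value from the 6 libraries below holds only given it. Of the gate's positive markers, Flt3 (which encodes Flk2) had scaled values of 209.3 to 282.7 and Cd27 of 61.9 to 104.2 over the 8 libraries. Il7r split the libraries as their profiles did: its scaled values were 74.8, 17.3 and 17.4 in ex vivo libraries 1, 3 and 4 and 26.8 in cCLP 1, but 213.4 in ex vivo library 2 and 196.0 to 224.3 in cCLP 2 to 4. The libraries high in Il7r are those high in Mt1 and Mt2 below, and the part of this in those results was not tested. Ly6d, which the gate should lack, was listed at 28, 28 and 41 in ex vivo libraries 1, 3 and 4 and at 22 in cCLP 1, but at 0 or 1 in the rest.

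Markers of other cells moved with the 6-library comparison. The summed scaled value of 10 genes of neutrophils and their precursors was 1361 to 3089 in ex vivo libraries 1, 3 and 4 and 265.3 to 297.1 in cCLP 2 to 4, where 7 of them were at 0. Mpo alone held 258.0, 272.8 and 287.8 of the sums in cCLP 2, 3 and 4, against 370.2, 919.7 and 984.6 in ex vivo libraries 1, 3 and 4. The sum was 167 in ex vivo library 2 (Mpo 159.2) and 1622 in cCLP 1 (Mpo 752.7). The summed value of 5 macrophage genes was 41.7 to 71.9 in ex vivo libraries 1, 3 and 4, 58.4 in cCLP 1, and 0 in cCLP 2 to 4 and in ex vivo library 2. Of 8 stromal markers, which OP9 cells could have carried over, Col1a1, Col1a2, Col3a1, Cxcl12, Lum and Dcn were at 0 in all 8 libraries, and the sum of all 8 was 2.88 to 6.32 in cCLP 2 to 4 against 8.65 to 14.7 in ex vivo libraries 1, 3 and 4. The summed value of 5 B cell genes was 13.4 to 22.9 in cCLP 2 to 4, 40.9 in ex vivo library 2 and at most 2.45 in the other libraries. The summed value of 6 erythroid genes was 8.58 to 43.3 in ex vivo libraries 1, 3 and 4 and 4.25 to 7.69 in cCLP 2 to 4, and that of 5 T cell genes was at most 2.47 in every library. The part of these other cells in the results below was not tested, and in bulk RNA fewer cells of a type cannot be told apart from less RNA per cell.

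Across the 10 genes, Mt1, Mt2, Slc39a6 and Slc39a14 were the ones whose level in cCLP 2 to 4 was at least 2.77 times that in ex vivo libraries 1, 3 and 4, while the sensor and the exporters had log2 differences between -0.19 and 0.24. Among all 8 libraries as labelled, 4 of the 10 members had values high enough to be tested (a scaled value of at least 10 in at least 4 libraries), and limma with Benjamini-Hochberg adjustment called 0 of them at an adjusted p of 0.05. The background there was 0% of 6486 genes, with 477 genes (7.35%) at an unadjusted p under 0.05. In the 6-library comparison 5 members were tested and 4 passed, all higher in cCLP (Mt1, Mt2, Slc39a6 and Slc39a10), where 20.8% of the 6573 tested genes passed as higher, 22.2% as lower and 43.0% in either direction. Because the values chose the members, nothing is read from that count. Mt2 passed the filter through cCLP only. In the 6-library set the groups did not overlap for any of those 5, where 55.7% of tested genes had groups without overlap (27.6% higher and 28.1% lower in cCLP). In all 8 libraries the groups overlapped for all 10 members, where 3.48% of tested genes did not overlap (1.87% higher and 1.62% lower in cCLP).

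**Figure D1:**
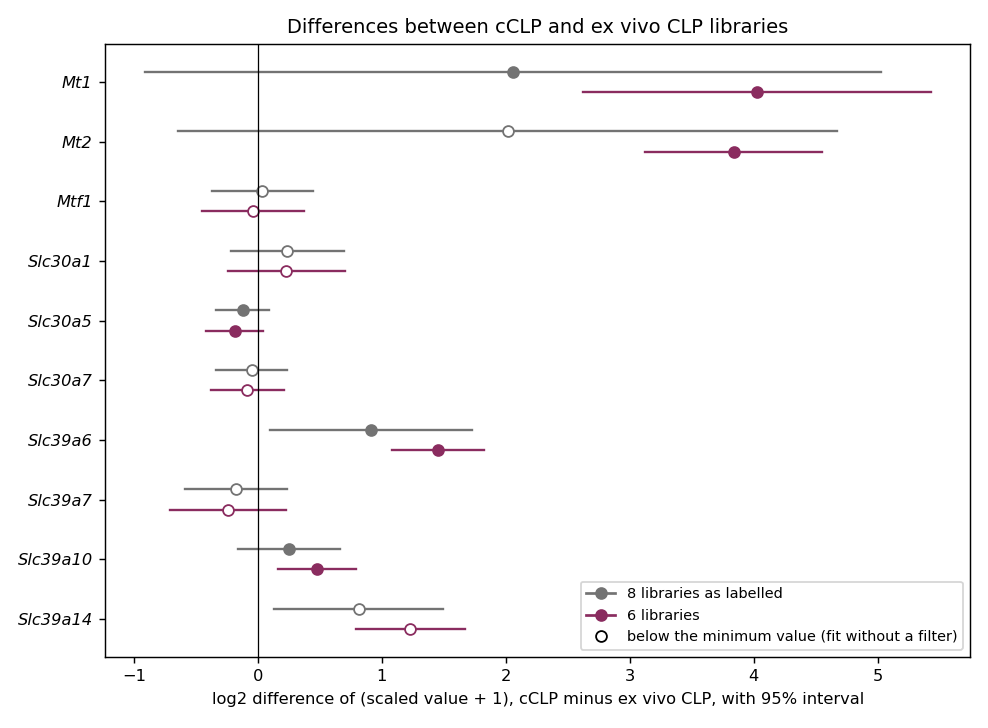
Log2 difference of cCLP minus ex vivo CLP for the 10 zinc genes (x axis, log2 of scaled value + 1) with 95% intervals, for all 8 libraries and for the 6-library set; members too low to be tested are marked as such. Mt1 stands at 2.06 over 8 libraries and 4.03 over 6, Slc39a6 at 0.91 and 1.45, and the exporters lie near 0.

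Mt1 and Mt2 lie side by side on chromosome 8 of the GRCm38 build, both on the plus strand: Mt2 (ENSMUSG00000031762) at chr8:94172664-94173568 and Mt1 (ENSMUSG00000031765) at chr8:94179082-94180327, with 5513 bases between them. The 250 bases before the RefSeq start of each gene (GRCm38.p6) are shown because MTF1 is known to act in the promoters of these genes. Those of Slc30a1, the exporter known as an MTF1 target, are shown with them. The stretches are chr8:94178839-94179088 (plus strand) for Mt1, chr8:94172368-94172617 (plus strand) for Mt2 and chr1:191906531-191906780 (plus strand) for Slc30a1. Capitals mark the core of the metal response element, TGCACNC or TGCGCNC, read on either strand.
Mt1: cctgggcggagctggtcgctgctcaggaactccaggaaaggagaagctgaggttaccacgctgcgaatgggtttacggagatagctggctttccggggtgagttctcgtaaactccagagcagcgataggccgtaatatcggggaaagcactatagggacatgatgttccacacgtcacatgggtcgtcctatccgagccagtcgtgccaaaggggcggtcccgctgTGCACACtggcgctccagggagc
Mt2: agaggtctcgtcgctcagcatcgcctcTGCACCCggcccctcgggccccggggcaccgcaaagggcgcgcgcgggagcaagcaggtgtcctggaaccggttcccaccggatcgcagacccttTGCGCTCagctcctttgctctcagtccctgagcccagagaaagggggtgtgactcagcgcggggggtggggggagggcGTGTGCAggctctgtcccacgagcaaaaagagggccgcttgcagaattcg
Slc30a1: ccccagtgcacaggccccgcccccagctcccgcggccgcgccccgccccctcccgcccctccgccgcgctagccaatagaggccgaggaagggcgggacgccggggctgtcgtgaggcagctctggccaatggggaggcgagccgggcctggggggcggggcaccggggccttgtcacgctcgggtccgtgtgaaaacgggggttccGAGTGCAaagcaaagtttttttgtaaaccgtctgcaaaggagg

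In the 300-base window from 250 bases before to 50 bases after the start, Mt1 had 3 core matches, beginning at positions -23, 3 and 21 relative to the start. Mt2 had 4 matches, beginning at positions -223, -128, -50 and 5 relative to the start, the last pair on the opposite strand. Slc30a1 had 2, both on the opposite strand, and Slc30a5 had 1. The windows of Mtf1, Slc30a7, Slc39a7 and both starts of Slc39a10 held none, and Slc39a6 and Slc39a14 were not among the promoters searched. The core is short: of 32851 promoter windows of 27025 genes, 25.7% held at least 1 match, 7.11% at least 2, 1.97% at least 3 and 0.517% at least 4. GENCODE M21 also lists Mt1 transcripts starting at 94179211 and 94179241, downstream of the printed stretch. Its start of Mt2 is 94172664, also downstream of the stretch printed for that gene, and that of Slc30a1 is 191906767, inside the stretch. Elements just before these Mt1 and Mt2 starts may therefore lie outside the printed bases. A match is a run of letters and does not show that MTF1 binds there.

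**Figure D2:**
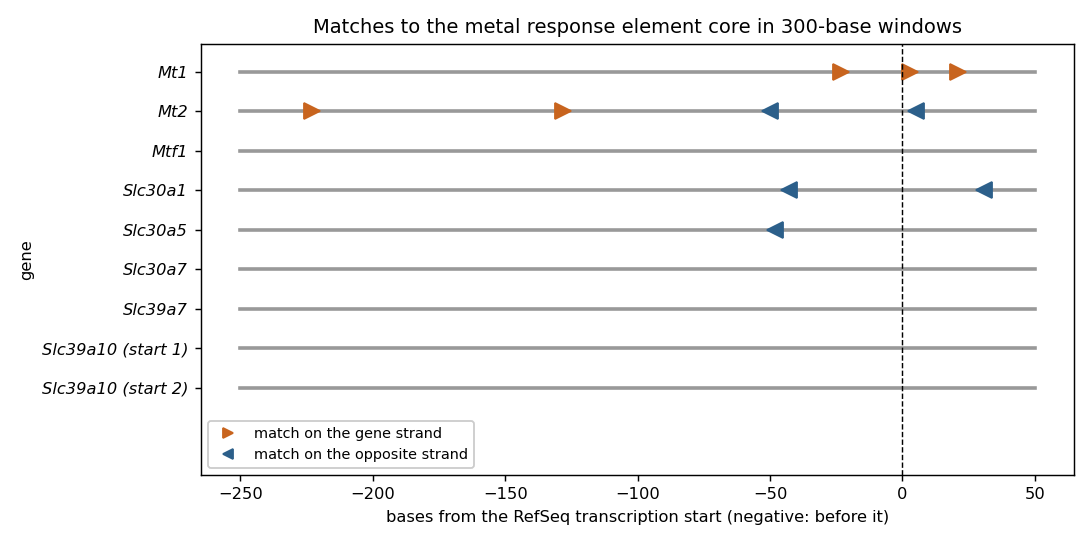
Positions of metal response element core matches (triangles, pointing by strand) in the 300-base window around each RefSeq start, with bases from the start on the x axis and 1 line per start. Mt1 has 3 matches, Mt2 has 4, Slc30a1 has 2 and Slc30a5 has 1.

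Mt1 had deposited values of 3, 149, 19 and 30 in ex vivo libraries 1 to 4, against 11, 202, 230 and 279 in cCLP libraries 1 to 4. Ex vivo library 2 and cCLP 2 to 4 were high, the other 4 libraries were low, and no value fell between 30 and 149. As labelled, the mean scaled value was 53.4 ± 74.8 (SD, n = 4) in the ex vivo group and 170.2 ± 107.0 (SD, n = 4) in cCLP, a log2 difference of 2.06 ± 1.29 (SE) with a 95% interval of -0.91 to 5.03. That value was 3.13 without cCLP library 1, 2.96 without ex vivo library 2 and 1.24 without ex vivo library 1. In the 6-library set the means were 16.3 ± 10.98 and 223.5 ± 12.3 (SD, n = 3 each), a ratio of 13.7 and a log2 difference of 4.03 ± 0.59 (SE, 95% interval 2.62 to 5.43). In that set 26 of the 6573 tested genes had a larger difference. The low group was uneven, with ex vivo library 1 at a scaled value of 3.68 and ex vivo libraries 3 and 4 at 23.5 and 21.8.

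Mt2 had deposited values of 0, 9, 0 and 1 in ex vivo libraries 1 to 4, against 0, 13, 25 and 15 in cCLP libraries 1 to 4. The libraries high in Mt1 were the libraries above 1 in Mt2, and the groups overlapped as labelled. Over all 8 libraries Mt2 was too low to be tested. In the 6-library set its scaled mean was 0.242 ± 0.420 in the ex vivo group and 16.8 ± 6.26 in cCLP (SD, n = 3 each). The log2 difference was 3.84 ± 0.31 (SE), and with ex vivo libraries at 0 its size rests on the number added before the logarithm: it was 4.63 when 0.5 was added and 3.04 when 2 was added, in place of 1. No transcript stretch of 75 bases in either gene was shared with another gene.

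Per base of principal transcript (549 bases for Mt1 and 511 for Mt2), the level of Mt1 was 15.4 times that of Mt2 in ex vivo library 2 and 14.5, 8.56 and 17.3 times in cCLP 2, 3 and 4. It was 27.9 times in ex vivo library 4, where Mt2 was listed at 1. Mt2 was at 0 in ex vivo libraries 1 and 3 and in cCLP 1, which gives no ratio. These ratios hold only if the deposited values are proportional to transcript amount and length, which their unnamed scale does not show. Of the other metallothioneins, Mt3 was listed at 1 in cCLP 3 and at 0 elsewhere, and Mt4 was at 0 in all 8 libraries.

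**Figure D3:**
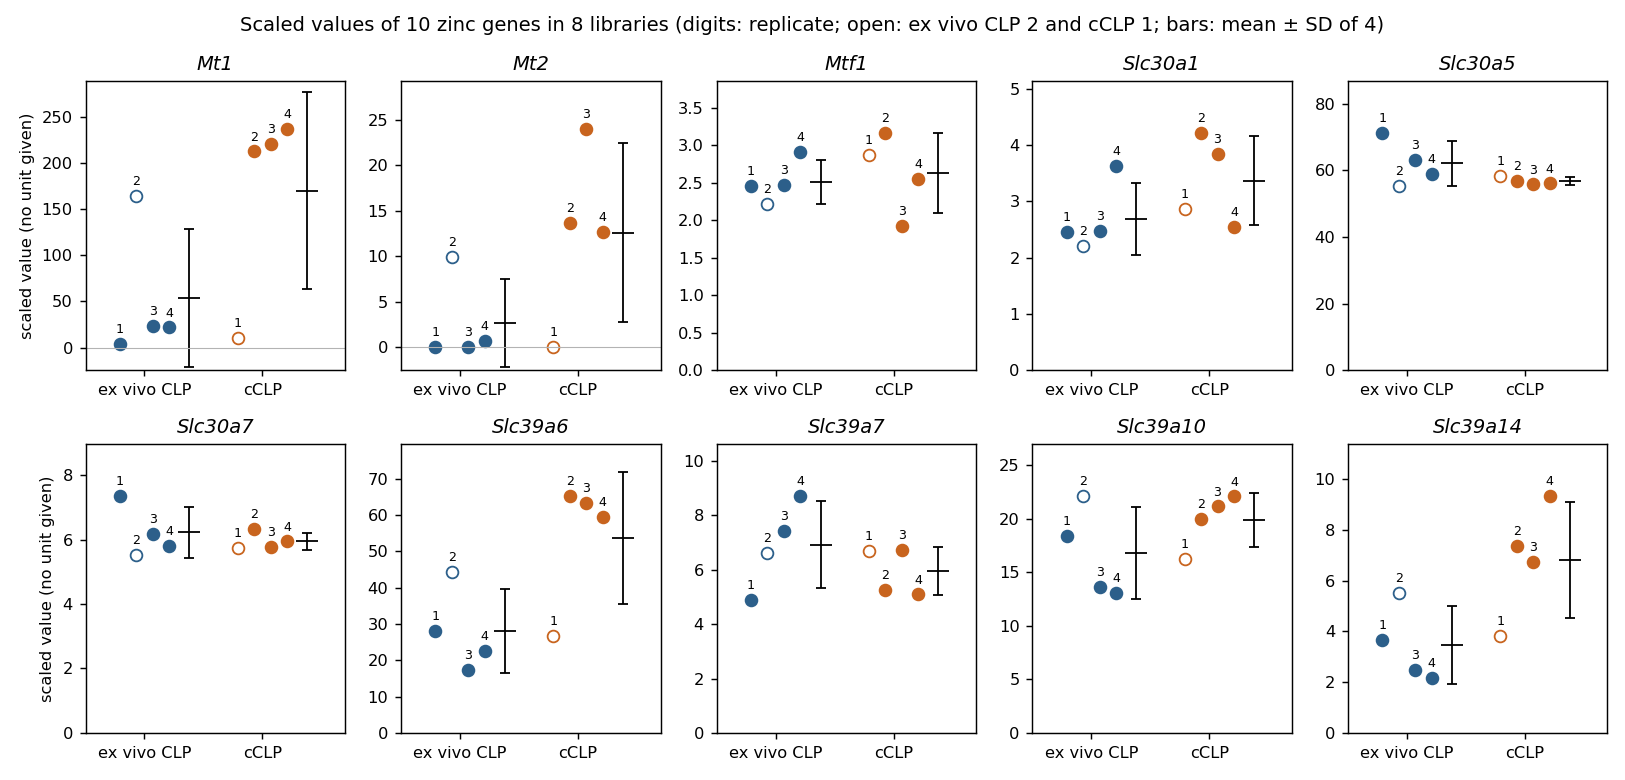
Scaled value (y axis, no unit given, linear) of each zinc gene in every library, with the replicate number beside each point, open circles for ex vivo library 2 and cCLP 1, and bars for the mean ± SD of the 4 libraries of a label. For Mt1, Mt2 and Slc39a6 the open ex vivo circle sits above the other ex vivo libraries and the open cCLP circle below the other cCLP libraries.

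Mtf1 (ENSMUSG00000028890, chr4:124802104-124849800, plus strand), the zinc sensor, had deposited values of 2, 2, 2 and 4 across the ex vivo group, against 3, 3, 2 and 3 across cCLP. These values are low and close together, and the groups overlapped. The log2 difference was 0.04 ± 0.18 (SE) over 8 libraries and -0.04 ± 0.18 (SE, 95% interval -0.45 to 0.37) over 6. The whole-number step limits this value, since 0.5 of a unit is 19.05% of the Mtf1 mean.

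Among the exporters, Slc30a1 (ENSMUSG00000037434, chr1:191906767-191913247, plus strand), which carries zinc out across the plasma membrane, had deposited values of 2, 2, 2 and 5 across the ex vivo group, against 3, 4, 4 and 3 across cCLP. The single highest value was in ex vivo library 4, and the groups overlapped. Its log2 difference was 0.24 ± 0.20 (SE) over 8 libraries and 0.23 ± 0.21 (SE) over 6, with a 95% interval of -0.24 to 0.70 in the 6. Slc30a1 was too low for the filter in both comparisons, and 0.5 of a unit is 16.0% of its mean.

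Slc30a5 and Slc30a7 load zinc into the secretory pathway. Slc30a5 (ENSMUSG00000021629, chr13:100802648-100833427, minus strand) had deposited values of 58, 50, 51 and 81 across the ex vivo group, against 61, 54, 58 and 66 across cCLP. Its scaled mean in the 6-library set was 64.3 ± 6.22 in the ex vivo group and 56.2 ± 0.59 in cCLP (SD, n = 3 each). The log2 difference was -0.12 ± 0.09 (SE) over 8 libraries and -0.19 ± 0.10 (SE, 95% interval -0.41 to 0.04) over 6; the 6 libraries did not overlap, but the gene did not pass the threshold. Slc30a7 (ENSMUSG00000054414, chr3:115938973-116007406, minus strand) had deposited values of 6, 5, 5 and 8 across the ex vivo group, against 6, 6, 6 and 7 across cCLP, with a log2 difference of -0.05 ± 0.13 (SE) over 8 libraries and -0.08 ± 0.13 (SE) over 6. Its groups overlapped in both sets.

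The importers were less alike. Slc39a6 (ENSMUSG00000024270), a plasma membrane ZIP known to work as a heteromer with Slc39a10, lies at chr18:24579881-24603817 on the minus strand. It had deposited values of 23, 40, 14 and 31 across the ex vivo group, against 28, 62, 66 and 70 across cCLP. The order of the libraries resembled that of Mt1: cCLP 2 to 4 were highest, ex vivo library 2 came next and cCLP 1 lay among the other ex vivo libraries. The mean scaled value in the 6-library set was 22.7 ± 5.45 in the ex vivo group and 62.7 ± 2.99 in cCLP (SD, n = 3 each), a ratio of 2.77. The log2 difference was 0.91 ± 0.35 (SE) over 8 libraries and 1.45 ± 0.16 (SE, 95% interval 1.08 to 1.83) over 6. Slc39a6 shares 952 bases with Elp2 on the opposite strand, and whether the counting used strand is not given in the sources used here. Elp2, an Elongator subunit, rose by 0.47 ± 0.11 (SE) on the log2 scale in the 6-library set (limma adjusted p = 0.00945), a smaller difference than that of Slc39a6.

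Slc39a10 (ENSMUSG00000025986, chr1:46807544-46892852, minus strand), known for its role in B cell survival, had deposited values of 15, 20, 11 and 18 across the ex vivo group, against 17, 19, 22 and 26 across cCLP. After scaling, ex vivo library 2 at 22.1 was as high as cCLP 4 at 22.1, and the groups overlapped as labelled. The mean scaled value in the 6-library set was 15.02 ± 2.93 in the ex vivo group and 21.1 ± 1.04 in cCLP (SD, n = 3 each), a ratio of 1.40. The log2 difference was 0.25 ± 0.18 (SE) over 8 libraries and 0.48 ± 0.14 (SE, 95% interval 0.16 to 0.79) over 6. The gene no longer passed the threshold when values were scaled by library sum (0.51), or without ex vivo library 3 (0.42), ex vivo library 4 (0.39), cCLP 2 (0.51), cCLP 3 (0.47) or cCLP 4 (0.44), each a log2 difference.

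Slc39a14 (ENSMUSG00000022094, chr14:70303469-70351425, minus strand) also carries iron and manganese, and had deposited values of 3, 5, 2 and 3 across the ex vivo group, against 4, 7, 7 and 11 across cCLP. Here too cCLP 2 to 4 were the highest libraries, with ex vivo library 2 next. The scaled mean in the 6-library set was 2.78 ± 0.79 in the ex vivo group and 7.81 ± 1.36 in cCLP (SD, n = 3 each), with no overlap, and the log2 difference was 1.23 ± 0.19 (SE) against 0.81 ± 0.30 (SE) over 8 libraries. It stayed below the minimum for testing in both sets.

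Slc39a7 (ENSMUSG00000024327, chr17:34028269-34031682, minus strand) releases zinc from the endoplasmic reticulum and Golgi and is needed for early B cell development. It had deposited values of 4, 6, 6 and 12 across the ex vivo group, against 7, 5, 7 and 6 across cCLP, and the groups overlapped. Its log2 difference was -0.18 ± 0.18 (SE) over 8 libraries and -0.24 ± 0.20 (SE) over 6. These values are uncertain, because 71.6% of its 75-base transcript stretches are shared with another gene and it overlaps Gm20427, listed at 0 in every library, on the same strand.

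The other 20 metallothionein and zinc transporter genes are given for comparison. Of these, Mt4, Slc30a2, Slc30a3, Slc30a8, Slc30a10, Tmem163, Slc39a2, Slc39a5 and Slc39a12 were listed at 0 in all 8 libraries, and 5 were high enough to be tested. None passed in the 8-library comparison. In the 6-library set 0 of 5 rose and 1 (20%) fell, where 20.8% of all genes tested rose and 22.2% fell. The gene that fell was Slc39a11, a ZIP of the Golgi and nucleus. Slc39a11 had deposited values of 27, 14, 27 and 51 across the ex vivo group, against 36, 15, 15 and 18 across cCLP, so ex vivo library 2 was low and cCLP 1 high. Its scaled mean went from 34.5 ± 2.21 to 15.2 ± 0.70 (SD, n = 3 each), and it fell by 1.13 ± 0.10 (SE) on the log2 scale (limma adjusted p = 4.61e-05); over 8 libraries the difference was -0.58 ± 0.35 (SE, limma adjusted p = 0.484). Its direction was the opposite of that of the importers Slc39a6, Slc39a10 and Slc39a14.

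The remaining tested transporters did not pass in the 6-library set. Slc30a6, a Golgi exporter that pairs with Slc30a5, differed by 0.39 ± 0.14 (SE) on the log2 scale (limma adjusted p = 0.0564). Its scaled values in ex vivo libraries 1, 3 and 4 were all under 10. Slc30a6 passed with scaling by library sum (0.0347), with a prior neither trended nor robust (0.0427) or without ex vivo library 3 (0.0331), each an adjusted p from limma. Slc30a9 differed by 0.21 ± 0.13 (SE, limma adjusted p = 0.222), and passed without ex vivo library 1 (adjusted p = 0.0480). Slc30a4 differed by -0.22 ± 0.14 (SE, limma adjusted p = 0.255). Slc39a1, a plasma membrane importer, differed by 0.19 ± 0.09 (SE, limma adjusted p = 0.124).

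**Figure D4:**
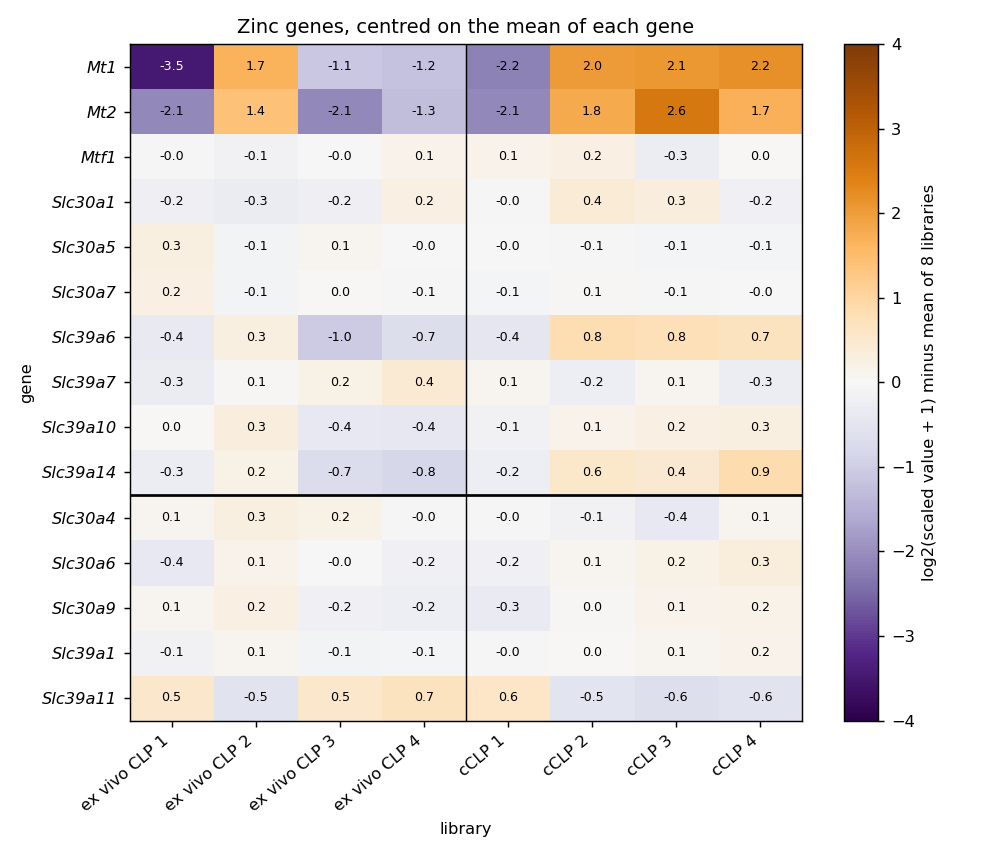
Heat map of the zinc genes (rows) in the 8 libraries (columns), coloured by log2 of scaled value + 1 minus the mean of each gene over the libraries. Mt1, Mt2, Slc39a6 and Slc39a14 share high values in ex vivo library 2 and cCLP 2 to 4, and Slc39a11 has the reverse order.

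Genes known to respond to MTF1, to other metals, to glucocorticoids or to oxidative stress were read in the same libraries. Over 8 libraries 0 of the 23 tested genes of these 4 lists passed in either direction. In the 6-library set, 4 of 5 other MTF1 targets were tested, 1 rose and 1 fell, with a median log2 difference of 0.09; the 50% that passed compare with 43.0% of all genes tested. Selenow, a small selenoprotein, rose from 152.0 ± 12.4 to 248.5 ± 20.1 (SD, n = 3 each), a log2 difference of 0.71 ± 0.11 (SE, limma adjusted p = 0.00158). Csrp1, a LIM domain protein, went from 290.2 ± 36.4 to 68.3 ± 7.24 (SD, n = 3 each) and fell by 2.07 ± 0.13 (SE) on the log2 scale (limma adjusted p = 7.51e-06). The other 2 tested targets, Gclc and Ndrg1, did not pass, although Ndrg1 did without ex vivo library 4 (limma adjusted p = 0.0126).

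Of 19 copper and iron genes, 8 were tested, 2 rose and 1 fell, with a median log2 difference of 0.19; the 37.5% that passed compare with 43.0% of all genes tested. Aco1, the cytosolic aconitase that doubles as iron regulatory protein, rose from 12.1 ± 1.24 to 25.4 ± 1.53 (SD, n = 3 each), a log2 difference of 1.02 ± 0.11 (SE, limma adjusted p = 0.000176). Slc25a37, a mitochondrial iron importer, was the other that rose (0.44 ± 0.14 on the log2 scale, limma adjusted p = 0.0365). Its adjusted p was 0.0923 without ex vivo library 3, 0.0963 without ex vivo library 4, 0.120 without cCLP 2, 0.0532 without cCLP 3, 0.109 without cCLP 4 and 0.0875 with scaling by library sum. Its relative Slc25a28 fell by 0.46 ± 0.11 (SE) on the log2 scale (limma adjusted p = 0.00957). Ferritin genes did not pass: Fth1 differed by 0.33 ± 0.35 and Ftl1 by 0.28 ± 0.19 (SE). Fth1 passed without ex vivo library 4 (adjusted p = 0.0320), as did Tfrc, the transferrin receptor (adjusted p = 0.0430), which was lower in cCLP.

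Of 8 genes of the glucocorticoid list, 4 were tested and all 4 fell in the 6-library set, with a median log2 difference of -0.88 and a background of 22.2% called lower. Fkbp5, a chaperone induced by the receptor, went from 19.4 ± 5.03 to 8.62 ± 1.66 (SD, n = 3 each) and fell by 1.06 ± 0.21 (SE) on the log2 scale (limma adjusted p = 0.00436). Nr3c1, the receptor itself, fell by 0.45 ± 0.10 (limma adjusted p = 0.00936), and Zfp36l2 fell by 0.70 ± 0.17 (limma adjusted p = 0.0130; 0.0544 without cCLP 4). Tsc22d3, known as GILZ, had deposited values of 13, 15, 51 and 74 across the ex vivo group, against 26, 10, 13 and 14 across cCLP. It fell by 1.63 ± 0.46 (SE) on the log2 scale (limma adjusted p = 0.0255), and its adjusted p was 0.102 without ex vivo library 3, 0.0791 without ex vivo library 4, 0.0980 without cCLP 2 and 0.0633 without cCLP 4. These 4 genes differed in the direction opposite to that of Mt1 and Mt2 in the 6 libraries, and any bearing of this on Mt1 and Mt2 was not tested. Of the listed genes too low to be tested, Sgk1 was higher in cCLP (0.485). Per1 (-2.543), Klf9 (-3.133) and Ddit4 (-0.819) were lower, each a log2 difference in the 6-library set. The neutrophil and macrophage marker sums were also lower in cCLP 2 to 4, and their part in the differences of the glucocorticoid list was not tested.

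Of 11 genes of the oxidative stress list (NRF2, its inhibitor KEAP1 and their targets), 7 were tested, 0 rose and 1 fell, with a median log2 difference of -0.14; the 14.3% that passed compare with 43.0% of all genes tested. Gsr, glutathione reductase, went from 38.1 ± 14.95 to 13.3 ± 1.00 (SD, n = 3 each) and fell by 1.37 ± 0.29 (SE) on the log2 scale (limma adjusted p = 0.00669). Nfe2l2, which encodes NRF2, differed by 0.08 ± 0.16 (SE). Txn1, thioredoxin, differed by -0.24 ± 0.15 (SE) and passed without ex vivo library 1 (adjusted p = 0.0229).

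The genes whose profile over the 8 libraries lay nearest to Mt1, by the root mean square difference of centred log2 values among 6485 tested genes, were Fcgr3 (0.417), AB124611 (0.483), Gpr141 (0.490), Klra1 (0.526) and Prss16 (0.623). Nearest to Mt2, among 6486 tested genes, were Hoxa11os (0.420), Inava (0.439), Hoxa10 (0.445), Prss16 (0.457) and Slc16a7 (0.484). Prss16, a thymus-specific serine protease gene, was on both lists. The distance between Mt1 and Mt2 themselves was 0.667, larger than that of the 5 genes named for either, which are the nearest of all genes searched. Mt2 was listed at 0 or 1 in ex vivo libraries 1, 3 and 4 and in cCLP 1. Its distances may therefore depend on the number added before the logarithm. These distances describe 8 libraries that share 1 main split, and say nothing of shared control.

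**Figure D5:**
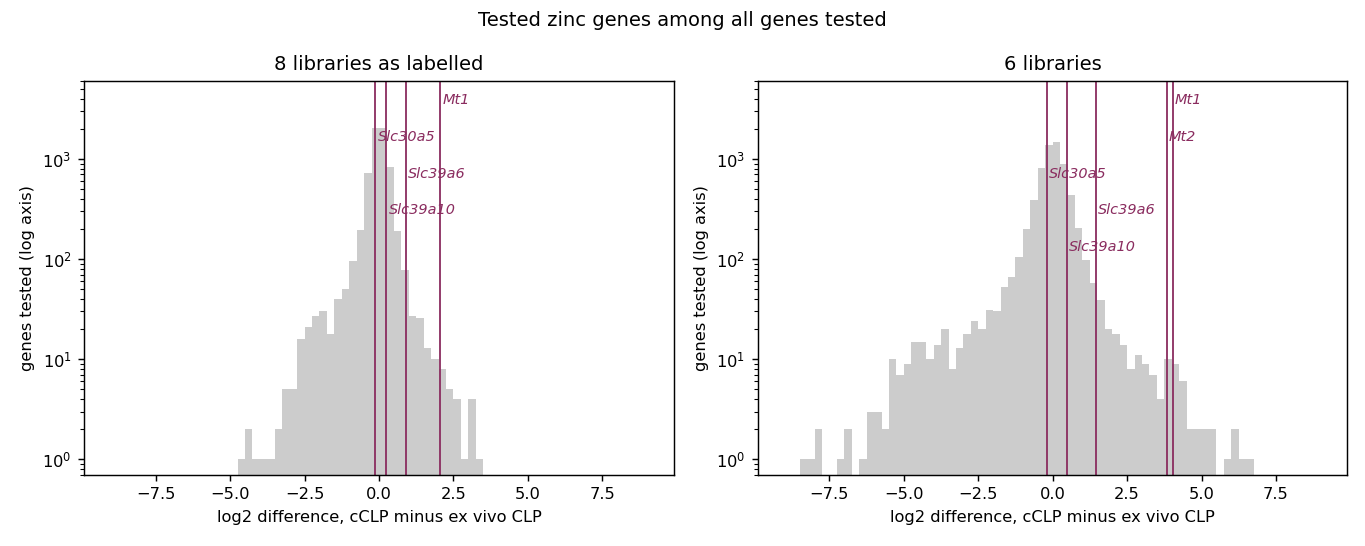
Distribution of log2 differences (x axis, cCLP minus ex vivo CLP) over all tested genes (y axis, number of genes), for the 8-library and the 6-library comparison, with the tested zinc genes marked by lines. Over 6 libraries Mt1 and Mt2 lie in the far right tail, with 26 and 35 genes of 6573 further out, Slc39a6 has 178 beyond it and Slc39a10 has 1024.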

How the data were processed

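RNA was extracted with TRIzol, and stranded libraries depleted of ribosomal RNA were made from 100 ng and sequenced as paired reads of 75 nt, per the labels' protocols. TopHat2, Bowtie2 and HTSeq 1.0.6 and the GRCm38 build are named in the submitters' processing notes. The authors deposited 1 whole number per Ensembl gene and library, treated here as a score of unnamed scale: between replicates these numbers varied less than read counts can (dispersion index 0.271 to 0.912, where Poisson counting gives 1), so no count model was used and read depth is unknown. Of 39179 identifiers, 37607 matched GENCODE M21; the rest hold 0.31% of the summed values.

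Values were divided by library factors from a trimmed mean of M-values (30% of ratios and 5% of levels trimmed). Log2(scaled value + 1) was tested with limma 3.58.1 (trended, robust prior) in R 4.3.3. The fit was also run on simulated data in which no library went against its label, so that run does not bear on such libraries. Testing required a scaled value of 10 or more in 4 of the 8 or 3 of the 6 libraries. P-values were adjusted by Benjamini-Hochberg over all genes tested, two-sided, at 0.05. Differences of untested genes come from the same fit without the filter. Members, gene lists and the 6-library set were chosen with earlier results of these data known. Named genes were the 10 members, every tested or all-zero gene of the other zinc lists, the largest change in each direction in each other list, and the 5 nearest profiles of Mt1 and Mt2; further genes were named after their values were seen. Alternatives were other scalings, pseudocounts, filters and priors, a replicate block, and leaving out each library.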

Additional observations from a re-analysis of the deposited data

Results flagged for a closer look

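In 30 groups of 4 libraries (15 genes under each label), 4 held a library whose gap to its nearest neighbour, as a share of the group's range, was above the 0.829 that marks a library standing apart. Gap and range were taken on log2(scaled value + 1), while the values listed below are the deposited ones, which do not give the same shares. For independent groups chance would flag about 1 in 20. That rate does not hold here, because the groups share the same libraries and the members were chosen with their values known. Mt1 in cCLP had a share of 0.965, with cCLP 1 listed at 11 and the others at 202 to 279. Slc39a6 in cCLP had one of 0.894, with cCLP 1 at 28 and the others at 62 to 70. Slc39a11 stood out under both labels: in ex vivo CLP the share was 0.869, with ex vivo CLP 2 at 14 and the others at 27 to 51, and in cCLP it was 0.897, with cCLP 1 at 36 and the others at 15 to 18. In each case the library was ex vivo CLP 2 or cCLP 1, the pair whose profiles lay with the other label. The flags therefore describe that same split and are no further evidence for it.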

How the results depend on the processing

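Over 8 libraries, 0 genes passed under every one of the 17 alternatives, and all 158 member values moved by under 1 SD. Over 6 libraries, 137 of 139 did, the exceptions being Mt2 at the other pseudocounts (4.63 and 3.04). This SD is that of log2(scaled value + 1) between libraries of a group, pooled over both groups. Over 8 libraries it also holds the spread from ex vivo library 2 and cCLP 1. With library factors fixed, leaving out 1 library cannot move a difference by 1 such SD, so those settings show no stability. No member that passed changed sign. Mtf1 and Slc30a7, untested and near 0, did change sign when 1 library was left out. Mtf1 ranged from -0.163 to 0.092 over 6 libraries and from -0.033 to 0.137 over 8. Slc30a7 ranged from -0.145 to 0.002 over 6 and from -0.097 to 0.021 over 8. Among all genes, 2236 of 13755 tested rose and 2767 fell without the filter, and 891 of 4235 rose at a minimum of 20. The main fit gave 1369 and 1459 of 6573. Leaving out 1 library gave 888 (of 6824, without cCLP 4) to 1567 higher and 1193 to 1736 lower. Without the filter, 5 genes of the 7 pathway lists rose and 14 fell, against 3 and 8; leaving out 1 library gave 2 to 4 and 7 to 11. For members, leaving out 1 library gave 3 to 4 higher, and no filter gave 5, Slc39a14 being the one added. The counts over all genes in those settings are the ones above. Because the values chose the members, nothing is read from their counts. The Mt1 difference ranged from 3.25 to 4.44 over 6 libraries and from 1.24 to 3.13 over 8 when 1 was left out. A setting that left out a library had fewer samples; otherwise the cause was not tested.

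No label ties same-numbered libraries to 1 mouse, culture or day. Their deviations from the labelled group means correlated at 0.595, 0.843, -0.575 and -0.860 for replicates 1 to 4, but the 2 libraries whose profiles go against their label shift those means, so these values do not bear on pairing. The replicate block rests, over 6 libraries, on numbers 3 and 4. With it, 1229 of 6573 tested genes rose and 1271 fell over 6 libraries, and the Mt1 difference was 3.28. Of 5 tested members 4 rose, a count from which nothing is read, because the values chose the members. Over 8 libraries 0 genes passed with the block. The whole-number step limits Mtf1, Slc30a1, Slc30a7, Slc39a7, Slc39a14 and Mt2, for which 0.5 of a unit is 6.35% to 19.05% of the mean.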
